A study of Mus musculus with 15 samples.

Results

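The genes described here are 9 genes that mark macrophages or carry the CSF1 signal, taken by their symbols from the annotation of an array that measures 19938 genes: the growth factor Csf1, its receptor Csf1r, the transcription factor Spi1, the surface proteins Adgre1 and Itgam, the lysosomal proteins Cd68 and Lyz2, and the scavenger receptors Msr1 and Marco. All 9 have 1 probe set that names that gene alone, and no filter on low values removed any of them. They were followed through 4 phases of arthritis in whole tarsal joints of mice and compared with control joints.

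Macrophages of the joint line the synovium and clear debris and immune complexes, and their number grows in inflamed joints as blood monocytes enter. CSF1 is the growth factor on which most macrophages and the precursors of osteoclasts depend, and it acts through the tyrosine kinase receptor encoded by Csf1r. PU.1, the product of Spi1, is the transcription factor that switches on Csf1r and many other genes of the lineage. Adgre1 encodes F4/80 and Itgam encodes CD11b, surface proteins used to sort mouse macrophages, and Itgam and Lyz2 are also strongly expressed by neutrophils.

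The mice were male DBA/1JBom, a strain prone to arthritis after immunisation with type II collagen. Arthritis had been induced with 100 µl of chicken collagen type II at 2 mg/ml in complete Freund's adjuvant on day 1, with a boost in incomplete adjuvant on day 21. Joints of clinical score 3, the highest on the scale, had been taken at 3 stages of arthritis in that joint, called day 0 to 3, then week 1 to 2, then week 3 to 4, and the decline joints had held score 3 for weeks, the sources differing on how many, before it fell by at least 1 point. The 3 control joints on the arrays are described as coming from mice that had not been immunised. Elsewhere the sources describe a control group given the adjuvants without collagen. Skin and visible muscle had been removed before extraction. Each array holds the RNA of 1 joint, and no joints were pooled. Of 15 arrays, 3 in each group, that of animal 57 in the day 0 to 3 group is marked as failing quality control, so that 14 were used and day 0 to 3 holds 2 joints. In whole-joint RNA, more cells of a type and more RNA per cell cannot be told apart.

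The arrays were not alike in their range of values. The standard deviation (SD) of log2 intensity over all genes was 1.22 to 1.46 on the control arrays, 1.28 to 1.59 on the decline arrays and 1.48 to 1.65 on the arrays of the other 3 phases. It was lowest on the arrays of control 2 and animal 10, a decline joint. The 10 measured housekeeping genes moved with it: their median log2 change against control was 0.80 on day 0 to 3, 0.67 and 0.54 in the next 2 phases and 0.26 in decline, while the median of all genes moved by -0.12, -0.13, -0.09 and -0.05. All changes below are on the log2 scale of the deposited values, and calls rest on a limma fit of the 5 groups, with p-values adjusted by Benjamini-Hochberg for the 19938 genes and a threshold of 0.05. These p-values measure the spread between joints of separate mice.

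On day 0 to 3 of arthritis, 4 of the 9 genes were higher than in control joints and none was lower. The scavenger receptor Msr1 was 7.31-fold higher, Adgre1 2.72-fold, Cd68 2.35-fold and Itgam 2.20-fold. The growth factor Csf1 differed from control by -0.02 on the log2 scale, and its receptor Csf1r was 1.76-fold above control without passing the test. Over all genes, 4.46% were called higher in this comparison. The median log2 change was 1.01 over the 9 genes, 0.80 over the housekeeping genes and -0.12 over all genes. Msr1 kept its call when any of the 14 arrays was left out, with an adjusted p of 0.00090 to 0.0451. Adgre1, Itgam and Cd68 lost theirs without animal 16, animal 18, control 2 or control 3 (adjusted p 0.0780 to 0.346), and Cd68 also without animal 43, animal 54 or animal 29 (0.0517 to 0.0566).

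**Figure D1:**
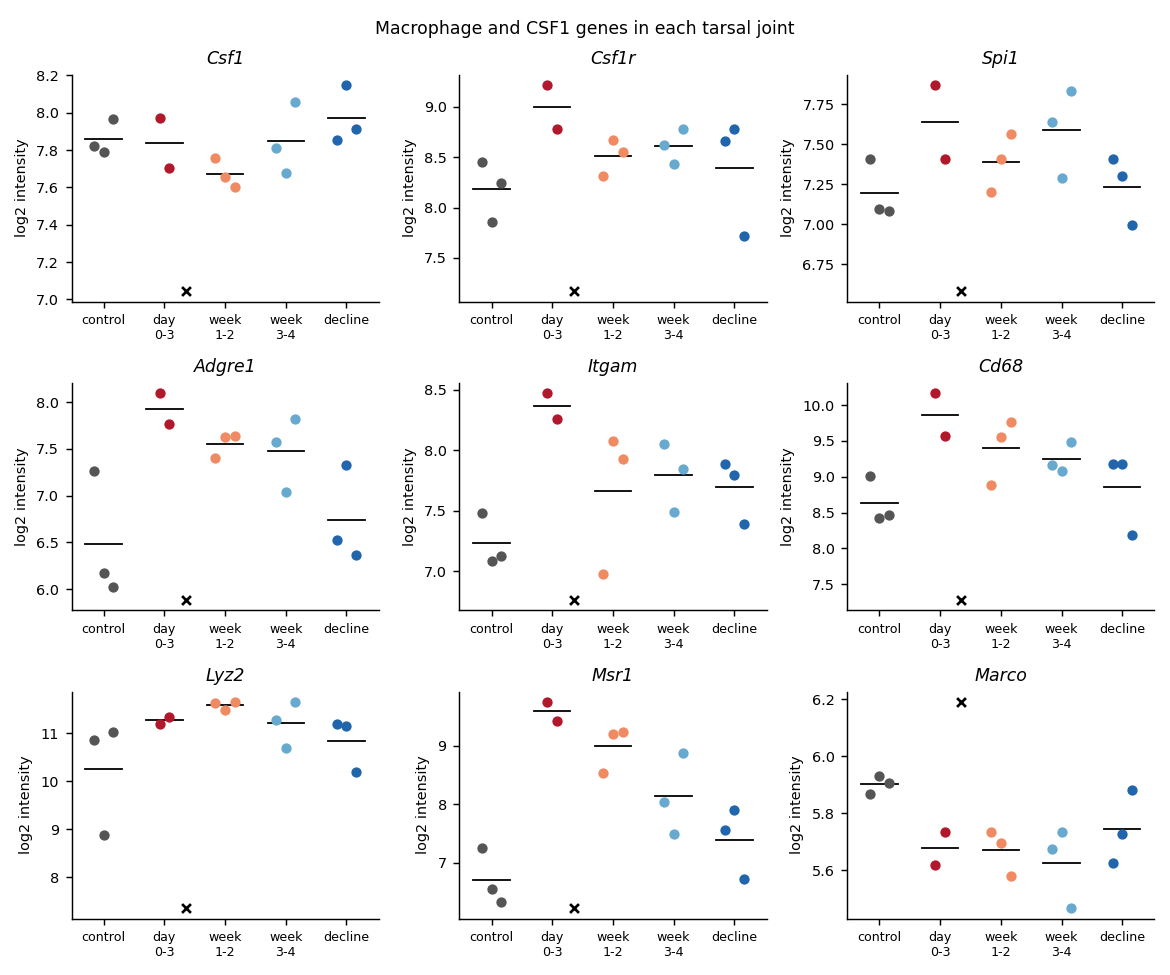
Log2 intensity of the 9 genes in each tarsal joint (vertical axis) in control joints and the 4 phases (horizontal axis). Filled points are the 14 joints used, bars their group means, and the cross is animal 57, left out for failing quality control. Msr1 was highest in the 2 joints of day 0 to 3, at 9.42 and 9.75, and control joints lay between 6.33 and 7.25.

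Csf1, the ligand, passed the test in no phase (probe set 10501164). Its log2 level was 7.82, 7.79 and 7.96 in control 1 to 3, and 7.97 and 7.71 on day 0 to 3. In week 1 to 2 the joints were at 7.76, 7.66 and 7.60. Those of week 3 to 4 were at 7.81, 7.67 and 8.06 and those of decline at 7.86, 8.15 and 7.91. The 2 joints of day 0 to 3 lay on both sides of the controls, and all 3 joints of week 1 to 2 lay below every control. The log2 change was -0.02 on day 0 to 3 (SE 0.17, adjusted p = 0.950), with a 95% interval of -0.38 to 0.34, and -0.19 in week 1 to 2 (SE 0.15, adjusted p = 0.406), with an interval of -0.51 to 0.13. In week 3 to 4 and in decline it was -0.01 and 0.11 (both SE 0.15). The order of its group means ran from decline at the top to week 1 to 2 at the bottom. Week 1 to 2 minus day 0 to 3, the next mean above it, was -0.17 (SE 0.17) and was not called.

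Csf1r, the receptor through which CSF1 acts, was at 8.46, 7.85 and 8.24 in the controls and at 9.22 and 8.78 on day 0 to 3 (probe set 10456071). Both joints of day 0 to 3 lay above every control. The joints of week 1 to 2 were at 8.31, 8.67 and 8.55, those of week 3 to 4 at 8.62, 8.43 and 8.78 and those of decline at 8.66, 8.78 and 7.72, and each of these groups overlapped the controls. The change of 0.81 on day 0 to 3 (SE 0.29, 95% interval 0.19 to 1.43) missed the threshold (adjusted p = 0.0966) and passed it without animal 10 (adjusted p = 0.0232). Later changes were 0.32, 0.43 and 0.20 in phase order, all with SE 0.26.

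Spi1, which encodes PU.1, was at 7.41, 7.10 and 7.09 in the controls and at 7.87 and 7.41 on day 0 to 3 (probe set 10473809). The ranges overlapped, since animal 18 and control 1 had the same value. Its log2 change was 0.44 on day 0 to 3 (SE 0.21, adjusted p = 0.207) and then 0.19, 0.39 and 0.04 in phase order (SE 0.19 each). It passed the test in no phase. The value 7.41 was identical on 4 arrays, Marco shared 1 value on 3 arrays and Cd68 1 value on 2, and the cause of these shared values was not tested.

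Adgre1, the F4/80 gene, was at 7.26, 6.17 and 6.03 in the controls and at 8.09 and 7.76 on day 0 to 3 (probe set 10446282). The 2 arthritic joints lay above every control, and control 1 lay more than 1 log2 unit above the other controls. The change was 1.44 (SE 0.36, adjusted p = 0.0295). The week 1 to 2 joints were at 7.40, 7.62 and 7.63, again all above the controls, and the change of 1.07 (SE 0.32) came just short of the threshold (adjusted p = 0.0521). Without control 1 it was 1.46 and was called (adjusted p = 0.0080), as in week 3 to 4 (1.38, adjusted p = 0.0207, against 0.99 and 0.109 with it). Leaving out animal 21 or animal 10 also let the week 1 to 2 change pass, with adjusted p of 0.0372 and 0.0375. The decline joints, at 6.53, 7.32 and 6.36, overlapped the controls, with a change of 0.25.

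Itgam, the CD11b chain that pairs with the integrin encoded by Itgb2, was at 7.48, 7.08 and 7.12 in the controls and at 8.47 and 8.26 on day 0 to 3 (probe set 10557862). The 2 arthritic joints lay well above all controls, with a change of 1.14 (SE 0.29, adjusted p = 0.0329). The joints of week 1 to 2 diverged: animal 33 was at 6.98, below every control, while animals 43 and 52 were at 8.07 and 7.93. The change there was 0.43 (SE 0.26, adjusted p = 0.276), with 0.57 in week 3 to 4 and 0.46 in decline, neither of which was called. A further 3 probe sets carry the names of Itgam and Rpl35 together and were not used.

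Cd68, a lysosomal glycoprotein of phagocytes, was at 9.01, 8.43 and 8.47 in the controls and at 10.16 and 9.57 on day 0 to 3 (probe set 10387536). Both joints lay above every control, and the change was 1.23 (SE 0.34, adjusted p = 0.0403). Week 1 to 2 joints were at 8.88, 9.56 and 9.76, with animal 33 inside the control range, and week 3 to 4 joints at 9.16, 9.07 and 9.49 were all above it. The changes of 0.77 and 0.61 (SE 0.30 each) were not called (adjusted p = 0.111 and 0.231). Without animal 10 the week 1 to 2 change passed (adjusted p = 0.0488). In decline, animals 15 and 21 were both at 9.18 and animal 10 was at 8.19, below all controls.

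Lyz2, the lysozyme of macrophages and neutrophils, was at 10.86, 8.88 and 11.03 in the controls, so that control 2 lay about 2 log2 units under the other controls (probe set 10372648). The joints of day 0 to 3 were at 11.20 and 11.35 and those of week 1 to 2 at 11.64, 11.49 and 11.66, all above every control. The changes of 1.01 (SE 0.51, adjusted p = 0.226) and 1.34 (SE 0.46, adjusted p = 0.0748) did not pass. Without control 2 they were 0.33 and 0.65, and without control 1 the week 1 to 2 change was 1.64 and passed (adjusted p = 0.0427). Lyz1, the neighbouring lysozyme of intestinal Paneth cells and a close relative in sequence, had its own probe set, with changes of 0.07 on day 0 to 3 and 0.22 in week 1 to 2 that were not called, and control 2 was its lowest array too, at 7.49.

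Of the called genes, Cd68 and Itgam have an entry among the promoter sequences used here, and their windows are shown because both genes were higher on day 0 to 3 and PU.1 is a known regulator of the lineage. The windows are from RefSeq on GRCm38.p6 and run from 250 bases before the gene's start to 50 after it, chr11:69666121-69666420 on the minus strand for Cd68 and chr7:128062390-128062689 on the plus strand for Itgam, in each case read 5′ to 3′ along the gene. Capitals mark GAGGAA, the core letters of a PU.1 site, or its reverse complement TTCCTC.
Cd68: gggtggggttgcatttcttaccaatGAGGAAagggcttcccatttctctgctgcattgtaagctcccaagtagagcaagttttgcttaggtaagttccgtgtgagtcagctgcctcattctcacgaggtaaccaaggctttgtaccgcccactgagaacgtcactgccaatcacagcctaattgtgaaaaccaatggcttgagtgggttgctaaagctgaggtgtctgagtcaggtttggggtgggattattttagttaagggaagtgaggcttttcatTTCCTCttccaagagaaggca
Itgam: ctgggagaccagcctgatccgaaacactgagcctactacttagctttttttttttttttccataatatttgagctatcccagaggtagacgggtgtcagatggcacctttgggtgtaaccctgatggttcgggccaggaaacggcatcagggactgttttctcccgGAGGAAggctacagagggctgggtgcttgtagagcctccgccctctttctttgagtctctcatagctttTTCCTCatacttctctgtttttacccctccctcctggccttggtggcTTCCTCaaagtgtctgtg
The letters occur 2 times in the Cd68 window, starting at position -225 and at position 29 from the gene's start, and 3 times in the Itgam window, at -84, -15 and 32. Of 5 members whose windows were searched, 3 hold the letters on either strand (Cd68, Itgam and Marco), and Csf1 and Lyz2 do not. The same letters stand in 28.3% of the 32851 windows of all genes, so that a match is common and describes only the sequence.

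Msr1, the class A scavenger receptor that takes up modified lipoproteins and dead-cell debris, changed most of the 9 genes in each phase against control (probe set 10578264). The controls were at 7.25, 6.55 and 6.33. The joints of day 0 to 3 were at 9.75 and 9.42, those of week 1 to 2 at 8.53, 9.20 and 9.24, and those of week 3 to 4 at 8.04, 7.48 and 8.87, and every one of these 8 joints lay above every control. The change was 2.87 on day 0 to 3 (SE 0.41, adjusted p = 0.00199), with a 95% interval of 1.98 to 3.76, and 0.0953% of genes had a larger one. One phase on, in week 1 to 2, it was 2.28, or 4.84-fold (SE 0.37, adjusted p = 0.00374), and it kept its call when any array was left out. Msr1 was the only member called in week 1 to 2, when 5.41% of all genes were called higher.

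In week 3 to 4 the Msr1 change was 1.42, or 2.67-fold (SE 0.37), and did not pass (adjusted p = 0.0652). It passed without animal 10 (1.42, adjusted p = 0.0301) or without control 1 (1.69, adjusted p = 0.0303). No member was called in that phase, when 0.958% of all genes were called higher. In decline Msr1 was at 7.56, 7.90 and 6.73, overlapping the controls, with a change of 0.68 (SE 0.37, adjusted p = 0.481). No gene of the 19938 was called in decline against control, which is 0% called higher, and 0 members and 2400 genes had an unadjusted p under 0.05.

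Marco, the other scavenger receptor of the set and a marker of resident macrophages of lung, spleen and lymph node, had a negative change in every phase (probe set 10357261). It was at 5.87, 5.93 and 5.91 in the controls, at 5.62 and 5.73 on day 0 to 3, at 5.73, 5.69 and 5.58 in the second phase and at 5.67, 5.73 and 5.47 in the third. All 8 joints of these phases lay below every control, but the changes of -0.23, -0.23 and -0.28 were small and none was called (adjusted p = 0.346, 0.248 and 0.216). In decline it was at 5.63, 5.73 and 5.88 and overlapped the controls. No group mean of Marco reached 6, the floor of the stricter filter, so it was not tested there.

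**Figure D2:**
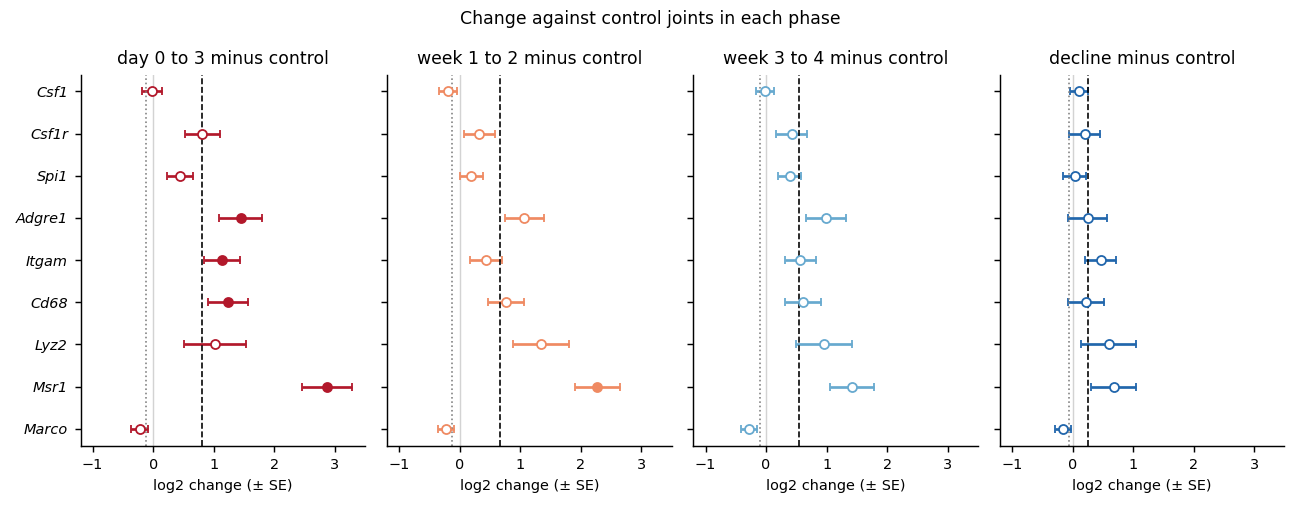
Log2 change against control joints (horizontal axis, points, with bars of 1 SE) of each gene (vertical axis) in the 4 phases. Filled points passed the adjusted p of 0.05, the dashed line is the median of the housekeeping genes and the dotted line that of all genes. Msr1 lay furthest to the right in every phase, from 2.87 on day 0 to 3 to 0.68 in decline, and Csf1 stayed between -0.19 and 0.11.

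Counting joints in place of means, 6 of the 9 genes had both joints of day 0 to 3 above every control (Csf1r, Adgre1, Itgam, Cd68, Lyz2 and Msr1), where 18.4% of all genes did. The count was 3 of 9 in week 1 to 2 (Adgre1, Lyz2 and Msr1) against 13.6% of genes, 3 of 9 in week 3 to 4 (Itgam, Cd68 and Msr1) against 10.5%, and 0 of 9 in decline against 3.8%. In the other direction, Marco was the 1 member with both joints below every control on day 0 to 3, where 27.8% of all genes were. Csf1 and Marco were the 2 such members in week 1 to 2, against 23.3% of genes, and Marco the 1 in week 3 to 4, against 15.4%.

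The group means of the 4 genes called on day 0 to 3 were lower in each later phase than on day 0 to 3. These genes were picked by their high values in the 2 joints of day 0 to 3, so lower later means partly follow from that choice. Of the 5 members not called, Csf1r and Spi1 also had their highest mean on day 0 to 3. Lyz2 had it in week 1 to 2, Csf1 in decline and Marco in control joints. Msr1 had 79.3%, 49.5% and 23.8% of its day 0 to 3 log2 change in the 3 later phases. The same shares were 73.9%, 68.7% and 17.6% for Adgre1 and 62.1%, 49.3% and 17.6% for Cd68, while Itgam was at 38.0% in week 1 to 2 and 40.9% in decline. The Itgam mean between them, in week 3 to 4, was higher than both, at 7.80 against 7.66 and 7.69. Between neighbouring phases no member was called. Over all genes, 0% were called lower in week 1 to 2 than on day 0 to 3, 0.00502% in week 3 to 4 than in week 1 to 2, and 0% in decline than in week 3 to 4. At an unadjusted p under 0.05 each of these 3 comparisons held 1 member, among 356, 993 and 1223 genes.

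Set against the mean of the first 2 phases, decline joints had less Msr1, which fell by 1.89 on the log2 scale, or 3.71-fold (SE 0.33, adjusted p = 0.0105). It was the 1 member called, when 2.08% of all genes were called lower, and its call held when any of the 14 arrays was left out, with an adjusted p of up to 0.0475. Adgre1 was at 0.500 of its early level (adjusted p = 0.0692), a difference that was called without animal 21 (-1.29, adjusted p = 0.0365) or without control 1 (adjusted p = 0.0278). Csf1 had a change of 0.22 in the other direction (adjusted p = 0.398). All early joints carry 1 letter code in their array names and all decline joints another, of unstated meaning, and with the code as a term, which then rests on the week 3 to 4 joints, the Msr1 change was -2.03 with an adjusted p of 0.915. In that fit 1 of the 19938 genes was called. The control arrays carry neither code, so array naming and arthritis cannot be told apart in the comparisons with control. Decline arrays also held more epidermal signal, with a mean of 10.23 to 11.09 over 8 keratinocyte genes against 5.67 to 6.49 in the early joints, and 5 of 10 skeletal muscle genes were called higher in decline than early. The part of these tissues in the Msr1 result was not tested.

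Single joints did not stand equally high. Animal 16 of day 0 to 3 was the highest of the 14 joints for 6 of the 9 genes and lay above every control for 8. Animal 60 of week 3 to 4 lay above every control for 8 genes, while animals 33 and 29 of the middle phases did so for 3. Animal 10 of decline lay above every control for 0 genes and was the lowest joint for 3. The array of animal 57, not used above, was below all 14 other joints for 8 of the 9 genes, with Msr1 at 6.22, Cd68 at 7.28 and Lyz2 at 7.35, and above them all for Marco at 6.19. Its SD over genes was 1.08. With that array in the fit the Msr1 change on day 0 to 3 was 1.75 (adjusted p = 0.382) and no member was called in any comparison. Over all genes, 11 were then called higher and 152 lower on day 0 to 3.

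Most of the 9 genes followed the range of values on the arrays. Over the 14 arrays, Pearson's r with the array's SD was 0.89 for Lyz2, 0.88 for Csf1r, 0.83 for Cd68, 0.82 for Adgre1, 0.79 for Msr1, 0.77 for Spi1, 0.68 for Itgam, -0.83 for Marco and 0.08 for Csf1. These are descriptions over arrays that share their groups and their normalisation. Without control 2 and animal 10, the arrays of narrowest range, Msr1 and Cd68 were called on day 0 to 3. Adgre1 and Itgam just missed the threshold (adjusted p = 0.0514 and 0.0509), with changes of 1.28 and 1.06 beside 1.44 and 1.14 over all 14 arrays. The median day 0 to 3 change of the 9 genes was 0.51 after a second quantile normalisation and 0.59 with 1 median and SD for every array, beside 1.01 as deposited. After the former, Cd68 was at 0.81 and lost its call (adjusted p = 0.0668), and 3 members and 750 of 19938 genes were called higher. With the latter, 4 members and 787 genes were.

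**Figure D3:**
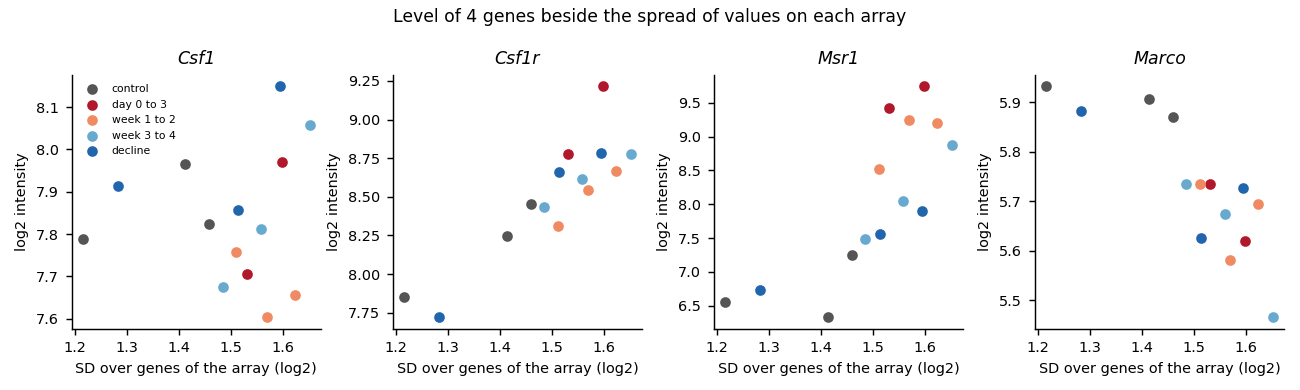
Log2 intensity of Csf1, Csf1r, Msr1 and Marco (vertical axes) against the SD of log2 intensity over all genes of the same array (horizontal axes), 1 point for each of 14 joints, coloured by group. Csf1r and Msr1 were higher on arrays of wide range (r = 0.88 and 0.79), Marco was lower there (r = -0.83), and Csf1 showed little relation (r = 0.08).

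Centring each array on its mean over the 10 housekeeping genes shifts all genes of an array alike. The median of all genes on day 0 to 3 moved from -0.12 to -0.91, and 281 genes were called higher and 11071 of 19938 lower. Msr1 was still higher, by 2.08 on day 0 to 3 (adjusted p = 0.00136) and by 1.62 in week 1 to 2 (adjusted p = 0.00434). The shift itself lowered Adgre1 to 0.65, Cd68 to 0.44 and Itgam to 0.34 on day 0 to 3, which were not called (adjusted p = 0.0795, 0.168 and 0.274). Csf1 at -0.81 (adjusted p = 0.0290) and Marco at -1.02 (adjusted p = 0.0234) were called lower under this scaling, as in week 1 to 2 (-0.84 and -0.89), when 10062 of all genes were called lower. The 2 of 9 members are a smaller share than that of all genes.

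**Figure D4:**
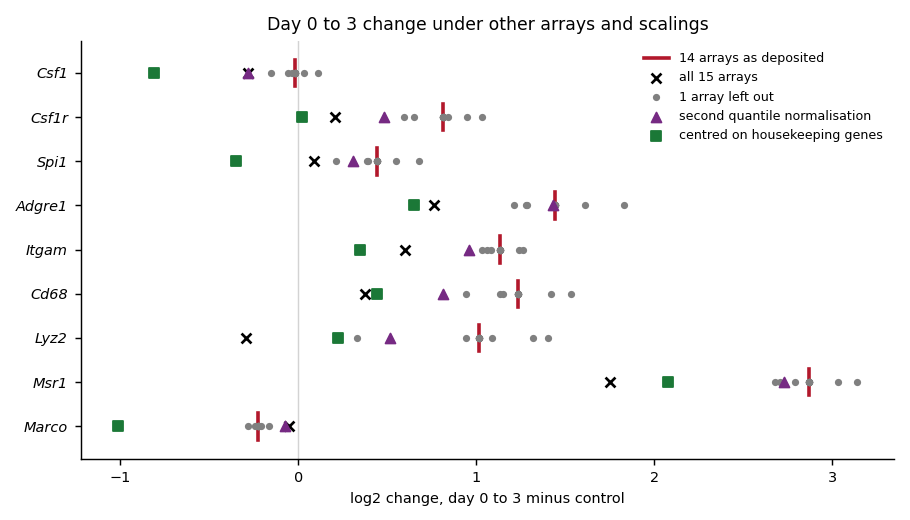
Log2 change between day 0 to 3 and control joints (horizontal axis) of each gene (vertical axis) as deposited over 14 arrays (red bar), with 1 array left out (grey points), with all 15 arrays (crosses), after a second quantile normalisation (triangles) and with arrays centred on housekeeping genes (squares). The lowest value of Msr1 among them was 1.75, and those of Csf1, Spi1 and Lyz2 lay on both sides of 0.

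Of the other genes of the CSF family, those called were receptor chains. In a list of 12 ligands and receptors related to CSF1, 3 were called higher on day 0 to 3 and none lower, with a median log2 change of 0.02. They were Csf2rb, the beta chain shared by the GM-CSF, IL-3 and IL-5 receptors, at 3.16-fold (adjusted p = 0.00622), Csf3r, the G-CSF receptor of neutrophils, at 3.07-fold (adjusted p = 0.0173), and Csf2rb2, the IL-3 beta chain, close to Csf2rb in sequence so that their probes may share signal, at 1.99-fold (adjusted p = 0.0254). Il34, the second ligand of the CSF1 receptor, was at 6.83, 6.91 and 6.45 in the controls and at 6.18 and 6.41 on day 0 to 3, with a change of -0.43 that was not called (adjusted p = 0.234). Csf2rb was the 1 gene of the list called in week 1 to 2, at 2.33-fold. All 3 receptor genes were lower in decline than in the first 2 phases, Csf3r by 2.77-fold, Csf2rb by 2.07-fold and Csf2rb2 by 1.90-fold.

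Among 14 measured genes that act downstream of the receptor, 6 were called higher on day 0 to 3 and none lower, with a median of 0.60. Tyrobp, the DAP12 adaptor of macrophages, osteoclasts and natural killer cells, was 3.94-fold higher (adjusted p = 0.0130). Cbl, the ubiquitin ligase that turns the receptor over, was 2.17-fold higher, the lipid phosphatase gene Inpp5d by 1.10 on the log2 scale and the Src family kinase gene Fgr 2.10-fold. A phase later 3 of the 14 were called, Tyrobp at 3.22-fold, Cbl at 1.92-fold and Fgr at 1.54-fold, and in week 3 to 4 none. Of 13 measured transcription factors of myeloid cells other than Spi1, Runx1 alone was called on day 0 to 3, at 2.68-fold (adjusted p = 0.0155), and in week 1 to 2 Runx1 was higher at 1.99-fold and Cebpb lower by 0.47 on the log2 scale.

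Among 21 other macrophage markers, 5 were higher on day 0 to 3 and 16 were not called, with a median of 0.59. The change was positive for 16 of the 21 and negative for the rest. Ms4a7, a membrane protein of macrophages, was 5.62-fold higher (adjusted p = 0.00201), the pore-forming protein gene Mpeg1 3.85-fold, the monocyte chemokine receptor gene Ccr2 3.12-fold and Aif1, which encodes IBA1, 3.03-fold. In week 1 to 2, 5 were higher and 1 lower, with a median of 0.24 and a positive change for 14 of the 21. The lower gene was Cd163, the haemoglobin scavenger receptor of resident macrophages, with a change of -1.08 (SE 0.27, adjusted p = 0.0256). Ms4a7 was still called in week 3 to 4, at a change of 1.79 (adjusted p = 0.0252). In decline against the first 2 phases 3 of the 21 were lower, Ccr2 by 2.07-fold, Aif1 by 2.08-fold and Cd14, the lipopolysaccharide co-receptor, by 2.08-fold (adjusted p = 0.0122, 0.0229 and 0.0489).

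Of 12 other scavenger receptors, Cxcl16 was 2.64-fold higher on day 0 to 3 and Scara5, a ferritin receptor of stromal cells, 1.82-fold lower (adjusted p = 0.0258 and 0.0127), with a median of -0.0048. Scara5 was lower in week 1 to 2 too, by 1.70-fold. Of 16 relatives and partners of the 9 genes, Lamp2, a lysosomal membrane protein of the family to which Cd68 belongs, was the 1 called, at 2.47-fold on day 0 to 3 and 2.70-fold in week 1 to 2. Itgb2, the partner chain of Itgam, had a change of 0.80 (adjusted p = 0.123).

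Other cell types share some of these genes. Of 9 markers of osteoclasts, which arise from the same CSF1-dependent precursors, 4 were higher on day 0 to 3 with a median of 0.92: Ctsk at 10.5-fold, Atp6v0d2 at 8.28-fold, Acp5 at 4.36-fold and Mmp9 by 2.07 on the log2 scale. All 4 were also called in week 1 to 2 and in week 3 to 4. Their mean over the list was 6.47 to 6.96 in controls and 7.91 to 8.37 on day 0 to 3. Of 12 neutrophil markers Csf3r was the 1 called, with a median of 0.05 and list means of 8.15 to 9.17 in controls and 8.71 to 9.01 on day 0 to 3. The chemokine receptor gene Cxcr2 had the largest change of that list, 2.25 or 4.77-fold (SE 0.67), which just missed the threshold (adjusted p = 0.0549), and both joints of day 0 to 3 lay above every control. The granule gene Ngp had a change of -1.23 (adjusted p = 0.151). Itgam and Lyz2 are neutrophil genes too, and the part of neutrophils in their values was not tested. None of 8 dendritic cell markers passed, Fcer2a was the 1 of 7 B cell markers called, 1.67-fold lower, and Cd3g the 1 of 7 T cell markers, 2.71-fold higher. The list medians were -0.04 for dendritic cells, -0.17 for B cells and -0.14 for T cells, where 3 of 7 changes were positive.

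The other tissues in the sample changed as well. Of 10 skeletal muscle markers 9 were lower on day 0 to 3, with a median of -2.22 and list means of 8.36 to 8.73 against 10.57 to 11.32 in controls. Of 9 synovial fibroblast markers 2 were higher, Lum at 3.21-fold and Cdh11 at 2.62-fold, with a median of 0.89, and of 9 joint and bone genes 1 was, Ibsp at 2.08-fold. None of 8 epidermal genes was called, with list means of 6.17 to 9.95 in controls and 5.67 to 5.77 on day 0 to 3. Of the housekeeping genes Ppia was called, at 4.93-fold (adjusted p = 0.00222), and in week 1 to 2, 4 of the 10 were called higher, beside 5.41% of all genes. The part of these tissues in the macrophage result was not tested.

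The genes whose pattern over the 14 arrays was most like that of Csf1 were Zbtb7a (r = 0.87), Rab35 (r = 0.84) and Mrpl43 (r = 0.83). Those most like Csf1r were Ppp4r1 (r = 0.95), Farsb and Anpep (both r = 0.94), and Anpep, the aminopeptidase CD13 of myeloid and stromal cells, was 3.28-fold higher on day 0 to 3 (adjusted p = 0.0478). Ligand and receptor were little related, with r = 0.17. Of the other members Cd68 stood nearest to Csf1r, with r = 0.91, at place 31 of 19937 genes, followed by Spi1 with 0.83 and Itgam with 0.81. The highest r between members was 0.92, for Adgre1 with Msr1, and it was 0.85 for their deviations from the group means. These correlations are over arrays that share groups, tissue content and range of values, and are given as a description.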

How the data were processed

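Joint RNA was isolated with the mirVana kit, amplified by NuGEN Pico chemistry and hybridised to Affymetrix Mouse Gene 1.0 ST arrays. The deposited values are log2 intensities that the authors made by RMA (background correction, quantile normalisation and probe summary) with affy in R 2.15; how many arrays entered that step is not given in the sources. Quantile normalisation gives arrays like distributions, yet the deposited arrays differ in range.

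Of 35556 probe sets, 21789 name 1 gene, and for 999 genes with several the probe set of highest mean over the 14 arrays was taken, which left 19938 genes. Groups were fitted together in limma 3.58.1 (lmFit, eBayes) under R 4.3.3 with 5 group means and no covariate, and p-values were adjusted by Benjamini-Hochberg over all genes. The steps were tested on simulated data. Promoters are from RefSeq tables on GRCm38.p6. Plots were made in Python 3.11.15 with matplotlib 3.10.9.

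The 9 members and the lists were chosen with earlier results of these data known. Genes named besides the members are up to 4 of each list with the largest absolute log2 change on day 0 to 3, any gene of a list called against most of it, and the 3 genes most correlated with Csf1 and with Csf1r; Lyz1, as a relative of Lyz2, and Cd14 were named outside this rule after their values were seen. Some of the listed genes are not reported here. The alternatives were all 15 arrays; each array left out; array weights; only the groups compared; moderation with trend and robust settings; median centring; a second quantile normalisation; 1 median and SD for every array; a group mean of at least 6; the mean of a gene's probe sets; all probe sets; an analysis of variance without moderation; a change of at least 2-fold as well; and the array name code as a term. The analysis of variance without moderation was fitted to only the groups compared, so it differs from the main fit in its arrays as well. Centring on housekeeping genes and leaving out the arrays of narrowest range were added after seeing the data. The number of arrays limits the precision.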

Additional observations from a re-analysis of the deposited data

Results flagged for a closer look

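Msr1 differed between 2 parts of the disease course by a test of the difference itself: decline minus the mean of the first 2 phases was -1.89 on the log2 scale (SE 0.33, adjusted p = 0.0105 in limma). All 3 decline joints lay below all 5 early joints for 2 members, Msr1 and Adgre1, where 7.34% of all genes did so. The phase and the letter code of the array names cannot be told apart in this comparison, except through the week 3 to 4 joints.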

How the results depend on the processing

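With 2 or 3 joints a group, the calls other than those of Msr1 were lost when single arrays of the 14 were left out. Msr1 kept its calls with any of the 14 left out, but lost them with the array of animal 57 added. In week 3 to 4, Msr1 was called only without animal 10 or control 1 among the fits with 1 array left out. Of 4 members called on day 0 to 3, 0 remained with all 15 arrays, when 11 genes in all were called higher. The count was also 0 with an analysis of variance without moderation of only the groups compared. In that fit 0 of the 19938 genes were called in either direction. The count was 2 with only the groups compared in limma, with all probe sets or without the arrays of narrowest range. Leaving out 1 array gave 1 to 5. In week 1 to 2, with 1 called, the count was 0 with all 15 arrays (22 genes in all higher) or without moderation (5), 2 with trend and robust moderation, median centring, a second quantile normalisation or a group mean of at least 6, and 3 with array weights or housekeeping centring (1 higher, 2 lower, beside 10062 of all genes lower); leaving out 1 array gave 1 to 3, with 3 without animal 10 or control 1. In week 3 to 4, with 0 called, it was 1 after the second quantile normalisation and 0 to 2 with 1 array left out. In decline against the first 2 phases, with 1 called, it was 0 with all 15 arrays, without moderation or with the array name code as a term (13, 26 and 0 genes in all lower), 2 with only the groups compared or array weights, and 1 to 2 with 1 array left out. The cause was not tested. Of 634 member changes recomputed under the alternatives other than leaving out 1 array, 571 kept their direction and side of the threshold and 26 changed sign, 0 of them called before. Of 630 with 1 array left out, 594 kept both and 10 changed sign.

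Of the 26 sign changes, 14 came with housekeeping centring, which lowers all genes alike (median of all genes -0.91, -0.78, -0.53 and -0.32 in the 4 phases) and so turns small changes by its shift. It turned Csf1 to -0.15 in decline, Csf1r to -0.33, -0.012 and -0.063 in the last 3 phases, Spi1 to -0.35, -0.46, -0.047 and -0.23 in the 4 phases, Itgam to -0.22 in week 1 to 2, and Adgre1 to -0.013 and Cd68 to -0.049 in decline; against the first 2 phases it turned decline to 0.092 for Csf1r, 0.14 for Itgam and 0.18 for Spi1. The second quantile normalisation turned decline to -0.019 for Csf1, -0.0097 for Cd68 and -0.047 for Spi1. Median centring turned Csf1 to 0.047 on day 0 to 3 and 0.027 in week 3 to 4. All 15 arrays turned Lyz2 to -0.29 on day 0 to 3 and to 0.071 in decline against the first 2 phases, where the name code turned Itgam to 0.067, and Marco was turned to -0.014 by all 15 arrays, -0.00017 by array weights, -0.0060 by the second quantile normalisation and -0.0064 by 1 median and SD for every array. With 1 array left out, Csf1 ranged from -0.15 to 0.11 on day 0 to 3 and -0.12 to 0.075 in week 3 to 4, and in decline Adgre1 from -0.040 to 0.64, Lyz2 from -0.093 to 0.98 and Spi1 from -0.049 to 0.16. No paired analysis was possible because each joint is from another mouse and the replicate numbers here are only names.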
